A study of Mus musculus with 2 samples.

Results

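CD8 T cells from MC38 tumors were taken from 1 single-cell RNA capture. They were chosen by their RNA: at least 2 UMIs (unique molecular identifiers, each standing for 1 RNA molecule) of *Cd3d*, *Cd3e*, *Cd3g*, *Trac* and *Trbc2* together, fewer than 10 UMIs of the macrophage complement genes *C1qa*, *C1qb* and *C1qc*, at least 1 UMI of *Cd8a* or *Cd8b1*, and none of *Cd4*. This gave 105 cells, 33 from control and 72 from telmisartan-treated tumors, out of 9911 cells kept after quality limits and 20726 putative cells in the capture. All 5 T cell genes, *Cd4*, *Cd8a*, *Cd8b1* and the C1q genes thus define the cells and are given below as a description only.

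Telmisartan blocks the angiotensin II type 1 receptor, and the study asked how it alters the immune cells of a colorectal tumor. Female C57BL/6 mice of 6 to 8 weeks carried MC38 tumors, a mouse colon carcinoma line, under the skin. From implantation on they were given vehicle (control) or telmisartan at 5 mg/kg into the stomach every day, and tumors were harvested on day 13. CD45+ leukocytes were sorted, cells of 5 mice were pooled per treatment, and both pools were marked by Sample Tags, antibody-bound oligonucleotides, and loaded together on 1 BD Rhapsody capture. A treatment is therefore 1 pool, mice cannot be told apart within it, and no test between treatments was possible. Levels are given as CPM, the UMIs of a gene per 1000000 UMIs of the same cells, and differences as the log2 ratio of CPM, telmisartan over control. Values in parentheses after a level, share or ratio are exact 95% intervals. They cover counting error only, and since the UMIs of 1 cell are not independent, genes carried by a single cell are named as such.

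CD8 T cells recognize peptides on MHC class I through the T cell receptor (TCR) and kill target cells by releasing perforin and granzymes. TCR signals switch on early response genes and activation receptors, and lasting antigen contact in tumors is known to bring up checkpoint receptors such as PD-1. Naive and memory cells instead keep genes for survival and recirculation.

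The 33 control cells held 151561 UMIs, with 957, 2845 and 16269 UMIs in the lowest, median and highest cell. The 72 telmisartan cells held 327272 UMIs, with 882, 3367 and 18341. Median genes per cell were 1381 and 1540, and mitochondrial genes made up a median of 9.07% and 7.19% of UMIs. CD8 T cells of the telmisartan pool were thus slightly deeper, whereas kept cells as a whole were shallower in that pool (9055 UMIs in the median control cell and 6584 in the median telmisartan cell).

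Over the summed cells, T cell genes that played no part in the choice were all present. Of 20 such genes, 20 were at least 2-fold higher in CD8 T cells than in the 9242 kept cells with no UMI of the 5 T cell genes, and together they had 7253 CPM in CD8 T cells. At least 3 of them were found in 32 of 33 control and 72 of 72 telmisartan cells. The remaining control cell was the deepest, holding 16269 of the 151561 control UMIs. It had 1 *Cd8a* UMI and 1.40% of its UMIs from the macrophage and monocyte markers described below. *Thy1*, a surface glycoprotein of T cells, had 1293 and 1399 CPM in control and telmisartan cells and 2.38 and 4.21 CPM in the kept cells without T cell genes. *Lck*, the kinase that starts TCR signaling, had 495 and 474 CPM, against 1.06 and 1.42 CPM. Of the genes used for the choice, *Cd8a* and *Cd8b1*, the coreceptor chains encoded next to each other on chromosome 6 (GRCm38, 71373427 to 71379173 and 71322788 to 71337494), were both found in 23 control and 54 telmisartan cells. *Cd3e* had a UMI in 30 and 60 cells and *Trac* in 25 and 61. The lowest, median and highest sum of *Cd8a* and *Cd8b1* UMIs was 1, 4 and 23 in control and 1, 4 and 28 in telmisartan cells, and that of the 5 T cell genes 2, 10 and 72 and 2, 16 and 67.

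Markers of other lymphocytes were at or near 0. *Foxp3*, the regulatory T cell factor, had 0 and 1 UMIs in control and telmisartan CD8 T cells, *Cd40lg*, a CD4 helper ligand, 1 and 8 UMIs, and the NK cell receptor *Klrb1c* 1 and 2 UMIs, while the NK cell receptor *Ncr1* had none. *Cd79a* and *Ms4a1* of B cells had none in either pool, which at a floor of 3 UMIs allows up to 19.8 CPM in control and 9.17 CPM in telmisartan cells. The 7 B cell markers had 2 and 6 UMIs in all, the most abundant being *Igkc*. The 9 tumor and stromal markers had 1 and 15, led by *Pecam1*. Among gamma-delta T cell markers *Trdc* had 0 and 1 UMIs, whereas *Tcrg-C2*, a gamma chain constant gene, had 1 UMI in 1 control cell and 26 UMIs in 9 telmisartan cells, a log2 ratio of 3.59 (0.98 to 8.95) that rests on that 1 control UMI. The 8 gamma-delta markers had 1 and 28 UMIs in all. The sum of the 8 CD4 and regulatory T cell markers was 798 CPM in control and 1063 CPM in telmisartan cells, a log2 ratio of 0.41 (0.11 to 0.72). Nearly all of it came from *Ctla4* and *Il2ra*, which activated CD8 T cells are also known to carry, and *Cd4* was 0 by choice.

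Among markers of other cell types, those of macrophages were the most abundant. The 20 macrophage and monocyte markers, which include the 3 C1q genes used in the choice, made up a median of 0.162% of a control cell's UMIs and 0.163% of a telmisartan cell's. Some cells carried far more: 5 control and 11 telmisartan cells were at 1% or above, with a highest value of 2.88% and 5.53%. All of these were deeper than the median cell of their pool, with at least 3298 UMIs in control and 4995 in telmisartan cells. The deepest cell of each pool was among them, so they weigh more in every summed level than their number. Kept cells with at least 10 C1q UMIs and no T cell gene UMI, called C1q+ cells here, had medians of 3.17% and 3.37%. The medians of the pools were alike, and the cells with most macrophage RNA set the summed level, which is described with the macrophage genes further on.

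Some cells lay close to the limits. There was 1 UMI of *Cd8a* and *Cd8b1* together in 5 control and 6 telmisartan CD8 T cells, while 16 T cells in each pool had neither *Cd8a*, *Cd8b1* nor *Cd4* and were not counted. A sum of 2 UMIs of the 5 T cell genes was found in 2 and 5 of them, and 1 and 3 cells with *Cd8a* or *Cd8b1* had 1 such UMI and were outside. There were 5 to 9 C1q UMIs in 2 control and 7 telmisartan CD8 T cells. A further 20 control and 16 telmisartan profiles met every other condition but had 10 C1q UMIs or more.

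CD8 T cells made up a larger share of leukocytes in the telmisartan pool. They were 33 of 5078 kept control cells, 0.650% (0.448 to 0.911%), and 72 of 4833 kept telmisartan cells, 1.49% (1.17 to 1.87%), a ratio of 2.29 (1.5 to 3.57). CD4 T cells, with a *Cd4* UMI and no *Cd8a* or *Cd8b1*, numbered 25 and 34, a ratio of shares of 1.43 (0.828 to 2.50). There were 1.32 CD8 per CD4 T cell in control and 2.12 in telmisartan-treated tumors.

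Within T cells the difference was smaller. CD8 T cells were 33 of 75 control T cells, 44.0% (32.5 to 55.9%), and 72 of 122 telmisartan T cells, 59.0% (49.7 to 67.8%), so the intervals of the pools overlapped. The shares depend on the sort for CD45, on the cap on C1q UMIs and on the mitochondrial limit, which removed 2623 control and 4433 telmisartan cells that were within the gene limits. Among those removed cells the RNA conditions for CD8 T cells were met by 0.419% in control and 0.429% in telmisartan, so the higher share was not seen there. Without any C1q UMI allowed, the shares of kept cells were 0.374% and 0.869%.

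**Figure D1:**
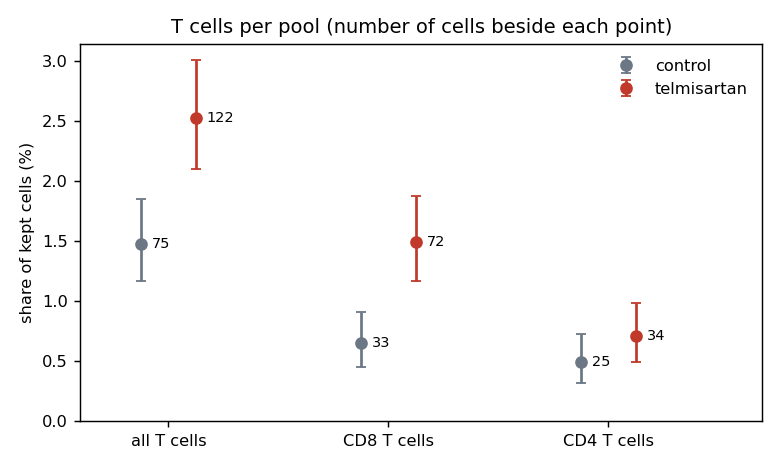
Share of kept cells (%) that were T cells, CD8 T cells and CD4 T cells in the control (gray) and telmisartan (red) pools. Points are shares with the number of cells beside them and bars are exact 95% Clopper-Pearson intervals. The CD8 share was 0.650% in control and 1.49% in the telmisartan pool, with intervals that do not overlap. These intervals cover counting error only, and each treatment is 1 pool.

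CD8 and CD4 T cells of the same pools differed by 2-fold or more in few genes. Over 3166 genes with at least 50 UMIs in both classes together, 122 were at least 2-fold higher in CD8 T cells (3.85%) and 111 at least 2-fold lower (3.51%), leaving out the genes used in the choice. In 68 and 57 genes the 2-fold difference was present in each pool. Both classes came from the same pools, so the values describe 105 and 59 cells. The control pool alone, with 1134 genes compared, gave 59 and 50 genes, and the telmisartan pool alone, with 1964, gave 124 and 75.

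The genes named next are the 15 highest and the 15 lowest whose interval left out 0 in the sum and in each pool alone. *Xcl1*, at 4.10 (3.24 to 5.13) in the sum, did not meet this in the telmisartan pool (1.01, -0.0047 to 2.13). *Gzma*, the trypsin-like granzyme A, had 109 UMIs in CD8 and 1 in CD4 T cells, a log2 ratio of CD8 over CD4 of 6.48 (3.97 to 11.80). *Prf1*, perforin, had 99 UMIs in CD8 and 5 in CD4 T cells, 4.02 (2.75 to 5.67), and *Ccl5*, a chemokine of effector T cells, 578 UMIs in CD8 and 70 in CD4 T cells, 2.76 (2.40 to 3.14). *Ly6c2*, a surface antigen of memory and effector CD8 T cells that monocytes also carry, had 698 UMIs in CD8 and 24 in CD4 T cells, 4.57 (3.99 to 5.23). *Bcl2*, a survival factor, was at 196 and 23.0 CPM in CD8 and CD4 T cells, and *Itga1*, the collagen-binding integrin chain of resident T cells, at 136 and 17.9 CPM. The multidrug transporter gene *Abcb1b*, the interferon-induced *Ifitm1* and the kinetochore motor *Cenpe* followed at 2.63 (1.71 to 3.68), 2.62 (2.06 to 3.22) and 2.60 (1.46 to 3.99). Further genes among the 15 highest were at similar levels in the kept cells without T cell genes, namely *Cxcl1*, *Slfn4*, *Slc7a2*, *Hmox1* and *Dock4*. *Cxcl1*, a neutrophil attractant, had 434 and 43.4 CPM in CD8 and CD4 T cells and 556 CPM in those cells. In the control pool the CD8 T cell with the most UMIs of the gene held 19 of 23 *Cxcl1*, 19 of 25 *Slfn4*, 44 of 54 *Slc7a2* and 25 of 32 *Hmox1* UMIs. The transporter *Slc16a6* completed the 15 at 2.71 (1.48 to 4.23). It had 100 CPM in CD8 T cells and 75.3 CPM in the kept cells without T cell genes.

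Genes of regulatory T cells led on the CD4 side. *Foxp3* had 1 UMI in CD8 and 128 in CD4 T cells, a log2 ratio of -7.29 (-12.60 to -4.79), and *Ikzf2*, the Helios factor of regulatory T cells, 18 UMIs in CD8 and 236 in CD4 T cells, -4.00 (-4.78 to -3.31). The chemokine *Ccl1* and its receptor *Ccr8* were lower in CD8 T cells at -3.85 (-4.27 to -3.46) and -3.01 (-4.40 to -1.85), as were the transcription factor *Maf* at -3.00 (-3.40 to -2.61) and the receptor *Klrg1* at -3.27 (-4.46 to -2.26). Also among the 15 lowest were OX40 (*Tnfrsf4*) at -2.81 (-3.31 to -2.33), *Tnfsf8* at -2.98 (-4.05 to -2.05) and RANKL (*Tnfsf11*) at -2.29 (-3.10 to -1.55). The others of the 15 lowest were *Ccnd1*, *Gbp3*, *Areg*, *Wls*, *Ifi27l2a* and *Nrgn*, with log2 ratios from -2.94 to -2.09. By list, the summed log2 ratio of CD8 over CD4 was 1.13 for effector cytokines and chemokines, 1.28 for naive and memory genes, 1.00 for NK-type receptors and 0.75 for mitosis genes. The pools differed in mitosis genes, with 2659 and 2315 CPM in control and 3034 and 1220 CPM in telmisartan CD8 and CD4 T cells. For granzymes and pore formers as a list it was 0.27 (0.19 to 0.35), with *Srgn*, *Gzmd* and *Gzme* lower in CD8 T cells (-0.27, -1.16 and -1.61). The ratio was -0.65 for costimulation and cytokine receptors, -0.44 for checkpoint genes and -0.80 for type I interferon genes. *Ifi27l2a* alone gave 200 of 1149 CPM in CD8 and 898 of 2006 CPM in CD4 T cells of the type I interferon sum. Of the naive and memory sum, *Ly6c2* gave 1458 of 2596 CPM in CD8 and 61.2 of 1072 CPM in CD4 T cells, and *Bcl2* 196 and 23.0 CPM.

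**Figure D2:**
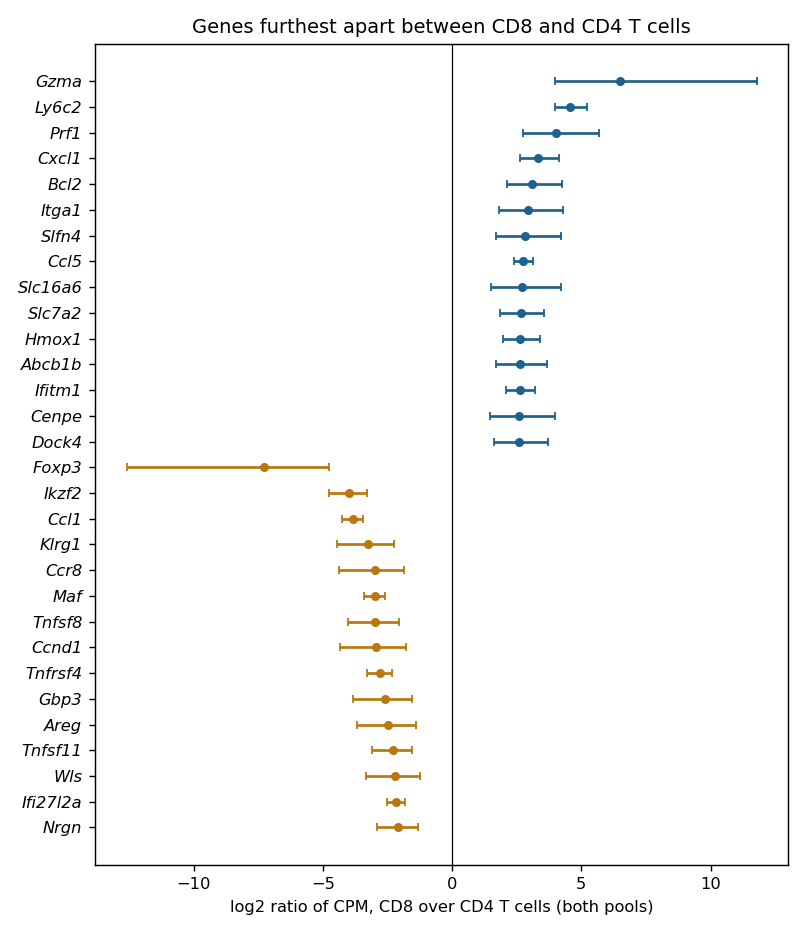
Log2 ratio of CPM, CD8 over CD4 T cells with both pools summed, for the 15 genes highest and the 15 lowest in CD8 T cells among those whose interval left out 0 in each pool. Points are log2 ratios and bars exact 95% intervals for counting error. *Gzma*, *Ly6c2* and *Prf1* lie at the top at 6.48, 4.57 and 4.02, and *Foxp3* lies lowest at -7.29.

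Between the treatments, the RNA of CD8 T cells differed by 2-fold or more in few genes. Of 1721 genes with at least 50 UMIs in both pools together, 82 were at least 2-fold higher in the telmisartan pool (4.76%) and 44 at least 2-fold lower (2.56%), with a median log2 ratio over those genes of 0.0049. The split depends on scaling: TMM factors, which shift every log2 ratio by the same amount and move the median to 0.11, gave 105 and 33, and the mean over cells of CPM per cell gave 122 and 51. At a tag share of 90% the split turned, with 54 genes higher and 60 lower. It also rests on single cells, since 151 and 29 genes passed 2-fold when the cell with the most UMIs of each gene was left out of each pool. With 33 control cells against 72, such a removal takes a larger part of the control sum.

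The 10 genes with the highest ratios included 4 chemokines and *Apoe*. *Ccl12* and *Cxcl3*, chemokines of monocytes and neutrophils, had no UMI in control cells and 59 UMIs in 10 and 88 UMIs in 13 telmisartan cells, at least 9.11-fold and 13.6-fold higher at a floor of 3 UMIs over the control pool, the one-sided 95% limit of a count of 0. The lower ends of their 95% counting intervals were 7.18-fold and 10.8-fold. *Pf4*, platelet factor 4, had 3 UMIs in 2 control cells and 93 UMIs in 16 telmisartan cells, *Apoe*, a lipid carrier of macrophages, 15 UMIs in 11 control cells and 344 UMIs in 32 telmisartan cells, and the chemokine *Ccl7* 13 UMIs in 4 control cells and 157 UMIs in 15 telmisartan cells. Their log2 ratios were 3.84 (2.25 to 6.15), 3.41 (2.67 to 4.26) and 2.48 (1.67 to 3.42), and 0.11, 1.08 and 0.30 in the kept cells without T cell genes, where *Ccl12* and *Cxcl3* went the other way (-0.25 and -0.76). A single telmisartan cell held 35 of the *Ccl12* UMIs and 1 control cell 8 of the *Ccl7* UMIs, and without the top cells *Pf4* was at 4.99 and *Ccl7* at 3.34. Of the 344 telmisartan *Apoe* UMIs 1 cell held 119, and the top 3 cells held 76.7%. The other 5 were of various kinds. *Nfkbie*, an inhibitor of NF-kB, had 4 UMIs in 4 control cells and 46 UMIs in 29 telmisartan cells, with 1 UMI at most in a control cell, a log2 ratio of 2.41 (0.96 to 4.35) beside 1.25 in the kept cells without T cell genes. *Fam110a* had 3 UMIs in 2 control cells and 47 UMIs in 24 telmisartan cells, 2.86 (1.22 to 5.19) and 4.0 without the top cells, and *Dhx40*, of the DEAH family of RNA helicases, 6 UMIs in 4 control cells and 59 UMIs in 28 telmisartan cells, 2.19 (0.98 to 3.69). *Sgk1*, a kinase downstream of PI3K, was at 2.52 (1.22 to 4.19) with all 5 control UMIs in 1 cell, and *Gm26745*, a predicted gene, at 2.21 (1.01 to 3.71) with 60 telmisartan UMIs in 7 cells.

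The 10 genes with the lowest ratios rested largely on single control cells. The MHC class II genes *H2-Eb1*, *H2-Ab1* and *H2-Aa*, which present peptides to CD4 T cells, had log2 ratios of -1.97 (-2.55 to -1.40), -1.86 (-2.27 to -1.46) and -1.61 (-2.06 to -1.16). In them 1 control cell held 36 of 76, 73 of 138 and 47 of 103 control UMIs, and without the top cell of each pool the ratios were -1.43, -1.07 and -1.05. In cells with no C1q UMI *H2-Ab1* turned to 0.25. *Cxcl9* and *Cxcl10*, interferon-induced chemokines that attract T cells, had 49 and 8 UMIs and 46 and 24 UMIs in control and telmisartan cells, of which 1 control cell held 41 and 42, and 1 telmisartan cell 15 of the *Cxcl10* UMIs. Their log2 ratios were -3.73 (-5.02 to -2.64) and -2.05 (-2.83 to -1.31), and -1.40 and -0.090 without the top cells. Among cells with less than 1% macrophage RNA, a limit chosen after seeing the data, the log2 ratios turned to 1.12 and 2.05. The metallothionein *Mt2* likewise had 40 of 77 control UMIs in 1 cell, *Fbxl5*, an iron-sensing ubiquitin ligase subunit, 33 of 63, and *Ms4a6d* 13 of 28. *Mt2* was at -1.45 (-1.96 to -0.94), *Fbxl5* at -1.60 (-2.18 to -1.02) and *Ms4a6d* at -1.39 (-2.26 to -0.55), and without the top cells at -0.78, -0.84 and -0.90. In cells with no C1q UMI *Mt2* and *Fbxl5* turned to 1.62 and 0.60. With at least 2 *Cd8a* and *Cd8b1* UMIs *Ms4a6d* was at 0.034. With cells thinned to 1000 UMIs *Cxcl10* and *Mt2* turned to 0.65 and 0.85. *Ifitm1* was more widely spread, with 124 UMIs in 16 control cells and 101 UMIs in 22 telmisartan cells and a log2 ratio of -1.41 (-1.80 to -1.02).

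Genes that respond to TCR signals were mostly higher in CD8 T cells of the telmisartan pool, and most were higher there in other leukocytes as well. Of 16 such genes 15 had at least 10 UMIs, and 12 were higher and 3 were lower in the telmisartan pool, with a median log2 ratio of 0.71 beside 0.0049 over all genes compared. Of the 13 with at least 50 UMIs, 6 were at least 2-fold higher and 1 was at least 2-fold lower, beside 4.76% and 2.56% of all genes compared. The list summed to 7027 CPM in control and 9613 CPM in telmisartan cells, a log2 ratio of 0.45 (0.35 to 0.55). The same sum was at 0.27 in the kept cells without T cell genes, at 0.45 in CD4 T cells and at 0.33 among CD8 T cells with less than 1% macrophage RNA.

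The orphan nuclear receptors of the NR4A family, which TCR signals induce rapidly, were higher in the telmisartan pool. *Nr4a1* (chromosome 15 from 101254269 to 101274795, GRCm38) had 52 UMIs in 14 control cells and 263 UMIs in 53 telmisartan cells, 343 and 804 CPM, a log2 ratio of 1.23 (0.79 to 1.69). *Nr4a3* was at 1.18 (0.64 to 1.75) and *Nr4a2* at 0.96 (0.42 to 1.54). In the kept cells without T cell genes the log2 ratios of *Nr4a1*, *Nr4a2* and *Nr4a3* were 0.65, 0.98 and 1.38, so a difference of this direction was not confined to CD8 T cells. Of the other genes on the list, *Nfkbia*, an inhibitor that NF-kB itself induces, had 673 and 1372 CPM and a log2 ratio of 1.03 (0.71 to 1.35), *Nfkbid* 1.1 (0.45 to 1.83) and *Rel*, the NF-kB subunit of activated lymphocytes, 1.35 (0.57 to 2.22), whereas *Tnfaip3*, the A20 feedback enzyme, was at 0.16 (-0.16 to 0.48).

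The AP-1 factors went in different directions. *Fosb* had 574 and 1195 CPM in control and telmisartan cells and a log2 ratio of 1.06 (0.72 to 1.41), and *Junb* was at 0.65 (0.31 to 0.99), whereas *Jun* was lower, with 666 and 309 CPM and -1.11 (-1.52 to -0.70). *Fos* was at -0.35 (-0.63 to -0.069), with 66 of 168 control UMIs in 1 cell, and at 0.069 without the top cell of each pool. The early factor *Egr1* was at -0.39 (-0.83 to 0.067). Of the phosphatases that dampen MAP kinases, *Dusp5* was at 0.71 (0.31 to 1.13) and *Dusp2* at 0.16 (-0.15 to 0.48). In the kept cells without T cell genes *Jun* and *Fos* were also lower (-0.42 and -0.44) and *Fosb* and *Junb* higher (0.51 and 0.43). Whether the same cause acted in both was not tested.

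The parts of the TCR machinery itself are given as a description, since 3 of its 18 genes (*Cd3d*, *Cd3e* and *Cd3g*) had chosen the cells. The 18 genes summed to 5351 CPM in control and 5781 CPM in telmisartan cells, a log2 ratio of 0.11 (-0.0079 to 0.23). Of them 13 were higher and 5 lower, and no sum without the 3 genes is given. The 20 T lineage genes not used in the choice were at 0.16 (0.055 to 0.27), with 12 higher and 8 lower. Both turned below 0 in cells with no C1q UMI (-0.14 and -0.29) and with at least 2 *Cd8a* and *Cd8b1* UMIs (-0.030 and -0.059). Among them *Cd2*, an adhesion and costimulation receptor, had 231 and 409 CPM and 0.83 (0.28 to 1.41), *Cd5*, which dampens TCR signals, 52.8 and 125 CPM and 1.25 (0.14 to 2.55), and *Ms4a4b* 937 and 1387 CPM and 0.57 (0.29 to 0.85). *Ms4a4b* was at -0.059 in cells with no C1q UMI. *Thy1* and *Lck* were at 0.11 (-0.13 to 0.36) and -0.063 (-0.47 to 0.35).

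The summed receptors of activated T cells were higher in the telmisartan pool, with intervals above 0 for 5 of 16 genes and below 0 for 1. Of 16 costimulation and cytokine receptor genes, all with at least 10 UMIs, 13 were higher and 3 were lower in the telmisartan pool, with a median of 0.35, and 2 of 11 with at least 50 UMIs were at least 2-fold higher, beside 4.76% of all genes compared. They summed to 3108 CPM in control and 3951 CPM in telmisartan cells, a log2 ratio of 0.35 (0.19 to 0.50). The kept cells without T cell genes were at -0.037 and CD4 T cells at 0.097. In cells with no C1q UMI, 19 control and 42 telmisartan cells, the sum turned to -0.13.

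*Il2ra*, the alpha chain of the IL-2 receptor (CD25), had 22 UMIs in 12 control cells and 103 UMIs in 36 telmisartan cells, a log2 ratio of 1.12 (0.44 to 1.85). *Tnfrsf4* and *Tnfrsf18*, the costimulators OX40 and GITR, had 2 and 41 UMIs and 9 and 46 UMIs in control and telmisartan cells, with log2 ratios of 3.25 (1.30 to 6.34) and 1.24 (0.20 to 2.46). Both *Tnfrsf4* UMIs of the control pool were in 1 cell, and without the top cells *Tnfrsf18* was at 1.93. *Icos*, a CD28-related costimulator, had 88 UMIs in 17 control cells and 269 UMIs in 52 telmisartan cells, 0.50 (0.15 to 0.87). In the kept cells without T cell genes *Il2ra* had 14.5 and 12.5 CPM, and the other 3 genes had at most 3.88 CPM. *Ifngr1*, a chain of the interferon-gamma receptor, was at 0.51 (0.089 to 0.95). In cells with no C1q UMI *Icos* and *Ifngr1* turned to -0.23 and -0.47, while *Il2ra*, *Tnfrsf4* and *Tnfrsf18* were at 0.56, 2.66 and 1.76.

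Checkpoint receptors and genes of exhausted T cells were higher for some members only. Of 16 genes 15 had at least 10 UMIs, and 10 were higher and 5 were lower in the telmisartan pool, with a median of 0.083, and 1 of 7 with at least 50 UMIs was at least 2-fold higher (4.76% of all genes). The sum was 2659 CPM in control and 3150.3 CPM in telmisartan cells, 0.24 (0.077 to 0.41), beside 0.12 in the kept cells without T cell genes. *Pdcd1*, which encodes PD-1 (chromosome 1 from 94038305 to 94052553), had 30 UMIs in 11 control cells and 111 UMIs in 37 telmisartan cells, 198 and 339 CPM, a log2 ratio of 0.78 (0.18 to 1.41). *Tnfrsf9*, the costimulator 4-1BB of recently activated cells (chromosome 4 from 150914562 to 150946102), had 46 UMIs in 15 control cells and 203 UMIs in 43 telmisartan cells, 1.03 (0.56 to 1.53), and went the other way in the kept cells without T cell genes (-0.97).

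Other members of the group went both ways. *Havcr2* (TIM-3) was at 0.35 (-0.20 to 0.94) and *Ctla4*, the list's most abundant gene, at 0.083 (-0.27 to 0.45). *Lag3* had 2 and 18 UMIs and *Tigit* 9 and 30 UMIs, with ratios of 2.06 (-0.0031 to 5.21) and 0.63 (-0.49 to 1.89). *Tox*, the factor that maintains exhausted cells, had 5 and 11 UMIs, 0.027 (-1.62 to 1.90). *Rgs16*, a brake on G protein signals, was lower in the telmisartan pool, with 79 UMIs in 12 control cells and 96 UMIs in 28 telmisartan cells, -0.83 (-1.27 to -0.38).

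Killing genes were at similar levels in both pools. Of 17 genes for granzymes, pore formers and their packaging, 14 had at least 10 UMIs, and 8 were higher and 6 were lower in the telmisartan pool, with a median of 0.12. None of the 10 with at least 50 UMIs was 2-fold apart. They summed to 6400.1 CPM in control and 6976 CPM in telmisartan cells, 0.12 (0.015 to 0.23), of which *Srgn*, the proteoglycan of the granule core that myeloid cells share, was the most abundant. *Gzmb*, the granzyme that starts apoptosis through caspases (chromosome 14 from 56258838 to 56262260), had 137 UMIs in 18 control cells and 404 UMIs in 42 telmisartan cells, 904 and 1234 CPM, a log2 ratio of 0.45 (0.17 to 0.74). The sum and *Gzmb* turned to -0.098 and -0.71 in cells with no C1q UMI.

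*Prf1* had 26 UMIs in 9 control cells and 73 UMIs in 21 telmisartan cells, 0.38 (-0.28 to 1.08) and -0.28 with cells thinned to 1000 UMIs, and *Gzma* 40 UMIs in 8 control cells and 69 UMIs in 14 telmisartan cells, -0.32 (-0.91 to 0.28). *Gzmk*, a granzyme of memory-like cells, was at -0.25 (-1.18 to 0.73), the granule membrane protein *Nkg7* at 0.23 (-0.048 to 0.51) and the cathepsin *Ctsw* at 0.093 (-0.44 to 0.64). *Serpinb6b*, of a serpin family that shields cells from proteases, had 24 and 88 UMIs, 0.76 (0.099 to 1.48). Apart from *Srgn*, the named genes of this group were scarce in the kept cells without T cell genes, where *Gzmb* had 1.17 and 3.45 CPM and *Prf1* 0.112 and 1.91 CPM. *Gzmf* had 32 UMIs in 4 control cells and 4 UMIs in 4 telmisartan cells, -4.11 (-6.07 to -2.62). It lies 56205263 to 56211417 on chromosome 14, in the cluster of related granzyme genes that also holds *Gzmb*, *Gzmc*, *Gzmd*, *Gzme* and *Gzmg*, so reads may have been split among copies and the count is uncertain.

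Cytokine and chemokine RNA was lower in sum in the telmisartan pool and was carried by few cells. Of 14 genes 13 had at least 10 UMIs, and 6 were higher and 7 were lower in the telmisartan pool, with a median of -0.069 and 1 of 7 with at least 50 UMIs at least 2-fold lower (2.56% of all genes). The sum was 6730.0 CPM in control and 5448 CPM in telmisartan cells, -0.30 (-0.42 to -0.19). It was at -1.07 in cells with no C1q UMI and at -0.092 without the cells of highest Scrublet score. *Xcl1*, which attracts cross-presenting dendritic cells (chromosome 1 from 164931644 to 164935527), had 196 UMIs in 6 control cells and 35 UMIs in 11 telmisartan cells, -3.60 (-4.16 to -3.07). In it 1 control cell held 112 UMIs and another 79, the highest telmisartan cell held 7, and without the top cell of each pool the ratio was -2.77. *Ccl4*, a chemokine of activated T cells, was at -0.67 (-0.88 to -0.47) with 210 of 341 control UMIs in 1 cell. Without the top cells it turned to 0.26, and with cells thinned to 1000 UMIs to 0.030.

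*Ifng*, the main T cell interferon, had 113 UMIs in 13 control cells and 203 UMIs in 25 telmisartan cells, -0.27 (-0.60 to 0.079), and 1 cell held 79 of the control and 1 cell 84 of the telmisartan UMIs. Without these cells the log2 ratio was 0.68. The related chemokine *Ccl3* was at 0.51 (0.24 to 0.79), with 239 of 452 telmisartan and 76 of 147 control UMIs in 1 cell each, and turned to -0.79 in cells with no C1q UMI. *Ccl5* had 134 UMIs in 20 control cells and 444 UMIs in 47 telmisartan cells, 0.62 (0.34 to 0.91). Its direction was not stable to scaling, at -0.17 as a mean over cells of CPM per cell and -0.25 with cells thinned to 1000 UMIs. *Fasl*, the death ligand, was at -0.069 (-0.94 to 0.86). *Il2*, the T cell growth factor, had 15 UMIs in 2 control cells, 14 of them in 1 cell, and none in the telmisartan pool, and *Csf2*, encoding GM-CSF, had none in control and 21 UMIs in 3 telmisartan cells, 17 of them in 1 cell.

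**Figure D3:**
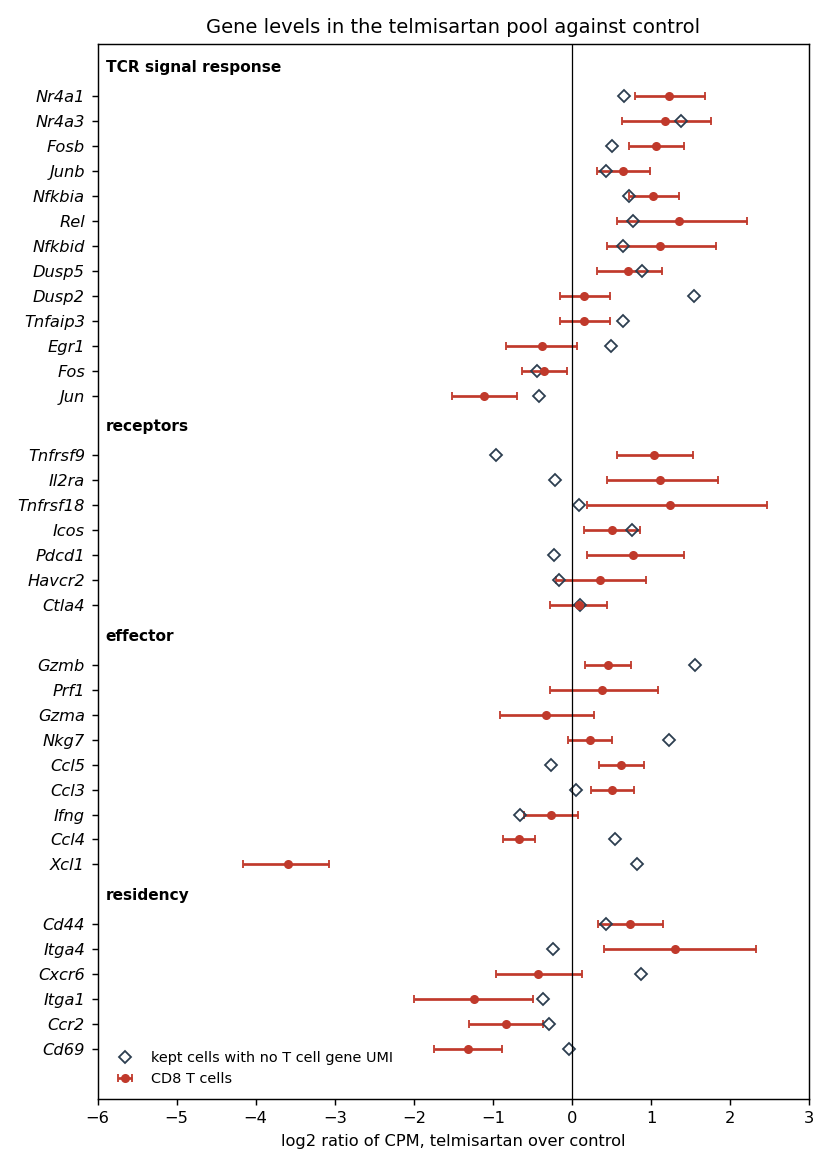
Log2 ratio of CPM, telmisartan over control, of genes that respond to TCR signals, receptors, effector genes and residency genes. Red points are CD8 T cells with exact 95% intervals for counting error, and open diamonds are the kept cells with no UMI of the 5 T cell genes. *Nr4a1* lies at 1.23 in CD8 T cells and 0.65 in the other cells, *Tnfrsf9* at 1.03 and -0.97, and *Xcl1* lies furthest left at -3.60, with 112 of its 196 control UMIs in 1 cell.

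Naive and memory genes did not lean one way. Of 15 genes 12 had at least 10 UMIs, and 6 were higher and 6 were lower in the telmisartan pool, with a median of -0.10, a sum of 2501 CPM in control and 2640.0 CPM in telmisartan cells and a log2 ratio of 0.078 (-0.098 to 0.26). Most of the sum was *Ly6c2*, at 0.24 (-0.0046 to 0.48). *Satb1*, a chromatin organizer of T cells, had 7 UMIs in 5 control cells and 50 UMIs in 22 telmisartan cells, 1.73 (0.58 to 3.11), and was the 1 of 5 genes with at least 50 UMIs that was 2-fold higher (4.76% of all genes). *Ccr7*, which guides cells to lymph nodes, had 1 UMI in 1 control cell and 34 UMIs in 15 telmisartan cells, 3.98 (1.40 to 9.32). Other genes of the group were lower. *Bcl2* had 45 UMIs in 12 control cells and 49 UMIs in 27 telmisartan cells, -0.99 (-1.60 to -0.37), a direction that turned with cells thinned to 1000 UMIs (0.17), and the IL-7 receptor *Il7r* was at -0.30 (-0.80 to 0.22). *Tcf7*, the TCF-1 factor of stem-like cells, had 12 UMIs in 4 control cells, 8 of them in 1 cell, and 7 UMIs in 5 telmisartan cells.

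Transcription factors of effector cells differed gene by gene. All 16 had at least 10 UMIs, and 10 were higher and 6 were lower in the telmisartan pool, with a median of 0.41, a sum of 3622 CPM in control and 3984 CPM in telmisartan cells and a log2 ratio of 0.14 (-0.0075 to 0.28). *Tbx21*, the T-bet master factor of effector cells, had 8 UMIs in 5 control cells and 40 UMIs in 26 telmisartan cells, 1.21 (0.097 to 2.52), and the related *Eomes* 4 and 12 UMIs, 0.47 (-1.25 to 2.56) and 1.06 without the top cells. *Bhlhe40*, a factor of activated T cells, had 515 and 914 CPM and 0.83 (0.46 to 1.21), beside 0.51 in the kept cells without T cell genes. *Rora* was at 0.89 (0.11 to 1.75) and at -0.017 with cells thinned to 1000 UMIs. In contrast *Ikzf1*, the Ikaros factor of lymphocytes, had 468 and 226 CPM, -1.05 (-1.54 to -0.56), and *Runx3*, which sets the CD8 lineage, 317 and 214 CPM, -0.57 (-1.12 to -0.0052).

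Residency and homing genes were mostly lower in the telmisartan pool. Of 16 genes 12 had at least 10 UMIs, and 3 were higher and 9 were lower in the telmisartan pool, with a median of -0.27. Of the 10 with at least 50 UMIs, 3 were at least 2-fold lower (2.56% of all genes) and 1 was at least 2-fold higher (4.76%). The sum was 4005 CPM in control and 3218 CPM in telmisartan cells, -0.32 (-0.46 to -0.17), beside -0.0013 in the kept cells without T cell genes and -0.052 in CD4 T cells. *Cd69*, which holds T cells in tissue and marks recent activation, had 100 UMIs in 15 control cells and 87 UMIs in 32 telmisartan cells, -1.31 (-1.74 to -0.88). In it 1 control cell held 46 UMIs, and without the top cells the ratio was -0.52.

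The integrin chain *Itga1* had 34 UMIs in 14 control cells and 31 UMIs in 17 telmisartan cells, -1.24 (-1.99 to -0.50), and *Itgae*, encoding CD103, which binds E-cadherin, had 9 UMIs in 3 control cells, 7 of them in 1 cell (59.4 CPM), and none in telmisartan cells, where 3 UMIs would be 9.17 CPM. The chemokine receptor *Ccr2* was at -0.84 (-1.31 to -0.37). It is also a macrophage gene, at 577 and 469.6 CPM in control and telmisartan kept cells without T cell genes. *Cxcr6*, the CXCL16 receptor of tumor-infiltrating T cells, was at -0.43 (-0.97 to 0.12). Against the others, *Cd44*, the hyaluronan receptor of antigen-experienced cells, had 435 and 724 CPM and 0.73 (0.33 to 1.15), and *Itga4*, the alpha chain of VLA-4, 79.2 and 196 CPM and 1.30 (0.40 to 2.33). Both were also found in the kept cells without T cell genes, *Cd44* at 793 CPM and *Itga4* at 104 CPM over both pools. *Itga4* turned to -0.79 with cells thinned to 1000 UMIs.

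NK-type receptors had similar sums in both pools. Of 14 genes 7 had at least 10 UMIs, and 2 were higher and 5 were lower in the telmisartan pool. The sum of the 14 was at -0.078 (-0.29 to 0.14), or 0.026 with TMM factors, and the median was -0.083. *Klrc1* and *Klrd1*, which pair as the inhibitory receptor NKG2A with CD94, had 442 and 464 CPM and 244 and 303 CPM in control and telmisartan cells, with log2 ratios of 0.071 (-0.35 to 0.51) and 0.31 (-0.25 to 0.90) that lay below 0 with cells thinned to 1000 UMIs (-0.22 and -0.38). The activating *Klrk1* (NKG2D) was at -0.083 (-0.58 to 0.42). Of the 14 genes, 5 had no UMI in either pool, among them *Ncr1*. The separate list of 8 NK and innate lymphoid markers, which holds *Gzma*, was at -0.20 (-0.71 to 0.33).

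A minority of CD8 T cells in both pools carried at least 3 of 20 mitosis genes, while the median cell of each pool carried 1. At least 3 were found in 12 of 33 control cells, 36.4% (20.4 to 54.9%), and in 20 of 72 telmisartan cells, 27.8% (17.9 to 39.6%). Cells with at least 3 were deeper than the others, with medians of 3586 against 2684 UMIs in control and 6841 against 2828 in the telmisartan pool. At least 3 S phase genes were found in 33.3% (18.0 to 51.8%) and 41.7% (30.2 to 53.9%), the other way round, and no order of the pools is read from these shares. Of 18 mitosis genes with at least 10 UMIs, 13 were higher and 5 were lower in the telmisartan pool, with a median of 0.65 and no gene of 9 with at least 50 UMIs 2-fold apart. The sum was 2659 CPM in control and 3034 CPM in telmisartan cells, 0.19 (0.022 to 0.36), a direction that turned as a mean over cells of CPM per cell (-0.15), with cells thinned to 1000 UMIs (-0.32) and at a mitochondrial limit of 10% (-0.20). *Mki67*, the Ki-67 antigen, had 56 UMIs in 6 control cells and 125 UMIs in 22 telmisartan cells, 0.048 (-0.42 to 0.53), and *Top2a*, the topoisomerase of dividing cells, 61 UMIs in 8 control cells and 99 UMIs in 20 telmisartan cells, -0.41 (-0.89 to 0.073).

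Single dividing cells weighed on the control values. A single control cell held 31 of 56 *Mki67* and 37 of 61 *Top2a* UMIs, and without the top cells the ratios were 0.93 and 0.49. *Stmn1*, which destabilizes microtubules, was at 0.68 (0.11 to 1.28), with 23 of 33 control UMIs in 1 cell and 2.08 without the top cells, and *Hmmr*, a spindle protein, at 2.21 (0.53 to 4.57) with 3 and 30 UMIs. *Nusap1*, another spindle protein, was at -1.0 (-1.85 to -0.13) with 17 of 24 control UMIs in 1 cell, and at 0.26 without the top cells. The 18 S phase genes, 15 of them with at least 10 UMIs, were at -0.11 (-0.38 to 0.16) in sum and -0.25 at the median, with 4 higher and 11 lower. At a tag share of 90%, with 23 control and 47 telmisartan cells, the sums of mitosis and S phase genes were 1.31 and 0.95.

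Genes induced by interferon-gamma were mostly lower in the telmisartan pool. Of 16 genes 15 had at least 10 UMIs, and 1 was higher and 14 were lower in the telmisartan pool, with a median of -0.90. Of the 7 with at least 50 UMIs, 1 was at least 2-fold lower, beside 2.56% of all genes. The sum was 2435 CPM in control and 1555 CPM in telmisartan cells, -0.65 (-0.84 to -0.45). It was at -0.044 in the kept cells without T cell genes and at 0.18 in CD4 T cells.

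*Gbp7*, a guanylate-binding protein of cell defense, had 50 UMIs in 16 control cells and 53 UMIs in 30 telmisartan cells, -1.03 (-1.61 to -0.44). *Psmb9*, a subunit of the immunoproteasome, had 32 UMIs in 18 control cells and 37 UMIs in 21 telmisartan cells, -0.90 (-1.62 to -0.17), and *Nlrc5*, which switches on MHC class I genes, 39 UMIs in 22 control cells and 52 UMIs in 33 telmisartan cells, -0.70 (-1.32 to -0.058). These 3 genes were each found in at least 16 control cells and kept a negative ratio without their top cells (-0.85, -0.80 and -0.56). *Gbp2* and *Iigp1* were carried by few control cells. *Gbp2* had 21 UMIs in 6 control cells, 12 of them in 1 cell, and 16 UMIs in 13 telmisartan cells, -1.50 (-2.54 to -0.49), and turned to 0.86 in cells with no C1q UMI. *Iigp1* had 14 and 2 UMIs, -3.92 (-7.10 to -1.80), with 7 of the control UMIs in 1 cell. Among cells with less than 1% macrophage RNA the list's sum was -0.24. It was at -0.32 with at least 3 T cell gene UMIs and -0.29 with at least 2 *Cd8a* and *Cd8b1* UMIs. With no C1q UMI it was at -0.35, and with cells thinned to 1000 UMIs at -0.38. All of these kept the direction but lay outside the interval of the reported sum.

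Type I interferon genes went both ways. Of 16 genes 14 had at least 10 UMIs, and 8 were higher and 6 were lower in the telmisartan pool, with a median of 0.32 although the sum was lower, at -0.19 (-0.45 to 0.073). This direction was not stable. The sum turned to 0.23 with no C1q UMI, to 0.14 with at least 2 *Cd8a* and *Cd8b1* UMIs and to 0.26 with at least 3 T cell gene UMIs. In the kept cells without T cell genes the sum was at 0.59. The sum of CD8 T cells was led by *Ifi203*, a DNA-sensing family member, at -0.66 (-1.18 to -0.13) with 25 of 55 control UMIs in 1 cell and -0.034 without the top cells. *Ifit1*, which binds foreign RNA, had 2 UMIs in 1 control cell and 21 UMIs in 6 telmisartan cells, 15 of them in 1 cell, 2.28 (0.25 to 5.42).

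Angiotensin receptors were not detected in CD8 T cells. *Agtr1a* and *Agtr1b*, the angiotensin II type 1 receptors, as well as *Agtr2*, *Agt* and *Ace*, had no UMI in any of the 105 cells. At a floor of 3 UMIs this allows up to 19.8 CPM in control and 9.17 CPM in telmisartan cells. In the kept cells without T cell genes these genes had at most 0.766 CPM (*Ace*), below those limits. CD8 T cells therefore cannot be told apart from those cells by these genes. *Pparg*, the lipid receptor that telmisartan partly activates, had 0 and 1 UMIs. Of the 9 genes of this list only *Lnpep*, an aminopeptidase that binds angiotensin IV, had at least 10 UMIs, with 264 and 244 CPM and a log2 ratio of -0.11 (-0.68 to 0.47). The list's sum was at -0.075 (-0.64 to 0.51), and at 0.029 with TMM factors and 0.17 with cells thinned to 1000 UMIs.

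Summed macrophage transcripts were higher in CD8 T cells of the telmisartan pool, while the median cells were alike (0.162% and 0.163% of UMIs). Of the 20 macrophage and monocyte markers, all with at least 10 UMIs, 14 were higher and 6 were lower in the telmisartan pool, with a median of 0.54, and 4 of 13 with at least 50 UMIs were at least 2-fold higher (4.76% of all genes). They summed to 7990.2 CPM in control and 11486 CPM in telmisartan cells, 0.52 (0.43 to 0.62), against 30854 and 30509 CPM in the kept cells without T cell genes. In CD4 T cells the sum went the other way (-0.73). *Lyz2*, lysozyme and the most abundant of them, had 444 UMIs in 26 control cells and 1271 UMIs in 52 telmisartan cells, 0.41 (0.25 to 0.57), and 1 telmisartan cell held 423 and 1 control cell 179 of these UMIs. At a tag share of 90% the sum and *Lyz2* turned to -0.28 and -0.85, and in cells with no C1q UMI the sum was at 2.49. With at least 3 T cell gene UMIs the sum was at 0.085 and *Lyz2* at -0.58.

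*Spp1*, osteopontin, was at 0.57 (0.29 to 0.85), with 74 of 140 control and 205 of 449 telmisartan UMIs in 1 cell each, and at 0.71 without these cells. Other markers were the lysosomal *Cd68* at 1.05 (0.47 to 1.67) and the monocyte chemokine *Ccl2* at 1.27 (0.81 to 1.77), the last of them at -0.15 with cells thinned to 1000 UMIs. A single control cell held 30 of 45 *Ccl2* UMIs, and without the top cells *Ccl2* was at 2.23. The 10 telmisartan cells with a UMI of *Ccl12*, itself on the macrophage list, had a median of 1.81% macrophage RNA, and the 62 others 0.156%. The part of macrophage RNA in the gene groups above was not tested.

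The summed dendritic cell markers were lower and the summed neutrophil markers higher in the telmisartan pool. Of the 12 dendritic markers 5 had at least 10 UMIs, with *H2-Ab1*, *H2-Eb1* and *Itgax* lower and *Ccl22* and *Fscn1* higher. *Ccl22* had 3 and 24 UMIs and *Fscn1* 0 and 29 UMIs, 17 and 28 of the telmisartan UMIs being in 1 cell each. The list summed to 1577 CPM in control and 639 CPM in telmisartan cells, -1.30 (-1.58 to -1.03), most of it *H2-Ab1* and *H2-Eb1*, while *Xcr1*, *Cd209a* and *Siglech* had no UMI. In cells with no C1q UMI the sum turned to 1.12, and among cells with less than 1% macrophage RNA to 0.19. The 7 neutrophil markers had 9 and 54 UMIs, led by *Mmp8* with 20 of 31 telmisartan UMIs in 1 cell, a log2 ratio of 1.47 (0.44 to 2.68) that turned to -0.44 at a tag share of 90%.

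The share of cells with a UMI showed how widely genes were spread. To compare the pools at equal depth, cells were thinned to 1000 UMIs, which left out 2 control and 3 telmisartan cells. The C1q+ cells serve as the background of free RNA, with a median depth of 11103 and 8606 UMIs against 2845 and 3367 in CD8 T cells. *Gzmb* was found in 18 of 33 control and 42 of 72 telmisartan cells (54.5% and 58.3%) and after thinning in 45.2% (27.3 to 64.0%) and 33.3% (22.4 to 45.7%). In C1q+ cells it was found in 1.37% and 1.60%, and after thinning in 0.0404% and 0.388%. The share after thinning was thus lower in the telmisartan pool while the CPM was higher, and no order is read from it.

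*Pdcd1* was found in 33.3% of control and 51.4% of telmisartan cells, after thinning in 19.4% (7.45 to 37.5%) and 31.9% (21.2 to 44.2%), and in 0.202% and 0.388% of C1q+ cells. *Tnfrsf9* was found in 45.5% and 59.7%, after thinning in 19.4% (7.45 to 37.5%) and 40.6% (28.9 to 53.1%), and in C1q+ cells after thinning in 7.76% and 4.80%. The intervals of the pools overlapped for both genes. *Nr4a1* was found in 42.4% and 73.6%, after thinning in 22.6% (9.59 to 41.1%) and 46.4% (34.3 to 58.8%), and in C1q+ cells after thinning in 30.8% and 46.0%. The C1q+ cells express it themselves, so they are no background for it, and the thinned share of CD8 T cells was below theirs in control and level with theirs in the telmisartan pool. *Havcr2* is likewise a gene of C1q+ cells (13.8% and 11.2% after thinning) and was found in 54.5% and 58.3% of CD8 T cells and in 19.4% (7.45 to 37.5%) and 29.0% (18.7 to 41.2%) of thinned CD8 T cells. *Prf1* was found in 27.3% and 29.2% of CD8 T cells (19.4% and 11.6% after thinning) and *Ifng* in 39.4% and 34.7% (12.9% and 20.3%), each in at most 0.364% of C1q+ cells. For *Prf1* and *Ifng*, as for *Gzmb*, the thinned share goes against the CPM, and no order is read from it.

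**Figure D4:**
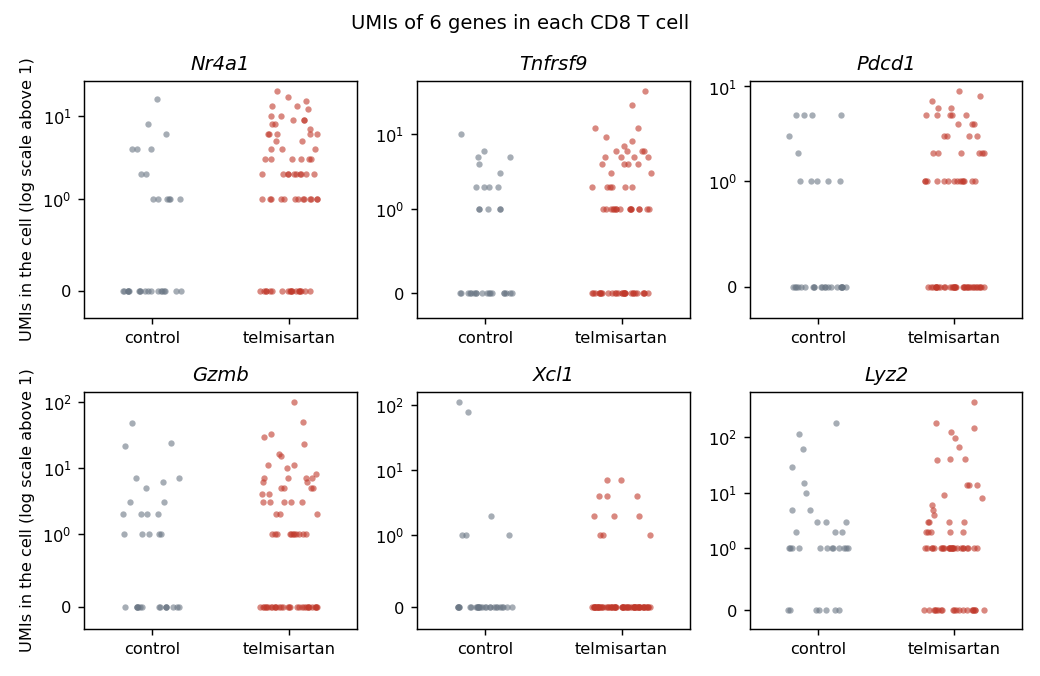
UMIs of 6 genes in each CD8 T cell (symmetric log axis, linear below 1) of the control (gray, 33 cells) and telmisartan (red, 72 cells) pools. Each point is a cell, spread sideways for visibility. *Xcl1* UMIs of the control pool sit mostly in 2 cells, the higher with 112, whereas *Nr4a1* and *Tnfrsf9* are spread over many cells of both pools.

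Killing and checkpoint genes were found together in some cells. Of the 9 control cells with *Prf1*, 6 had *Gzmb*, 5 *Pdcd1* and 5 *Havcr2*, and of the 21 telmisartan cells 15, 14 and 16. Over all cells, *Gzmb*, *Pdcd1* and *Havcr2* were found in 18, 11 and 18 of 33 control and in 42, 37 and 42 of 72 telmisartan cells. In control cells *Havcr2* was therefore about as frequent with *Prf1* as over all cells. *Gzma* was found in 2 and 7 of the *Prf1* cells and in 8 and 14 of all cells. Of the 11 control cells with *Pdcd1*, 6 had *Havcr2*, 2 *Lag3* and 1 *Tcf7*, and of the 37 telmisartan cells 28, 6 and 1, where *Lag3* and *Tcf7* were in 2 and 4 of all control and 13 and 5 of all telmisartan cells. Cells with *Prf1* were deeper than the others (a median of 4405 against 2784 UMIs in control and 4138 against 2787 in telmisartan cells), and the part of depth in this overlap was not tested.

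T cell receptor variable genes were seen in few cells. Of 32 *Trav* genes in the count table, 6 were found in 6 control cells and 7 in 8 telmisartan cells, and of 18 *Trbv* genes 3 in 3 and 8 in 13. The most used in the telmisartan pool, *Trav16n* and *Trbv12-2*, had a UMI in 3 cells each, and no variable gene was found in more than 3 cells of a pool. The kept cells without T cell genes had a *Trav* UMI in 3 of 4748 control and 1 of 4494 telmisartan cells and a *Trbv* UMI in 2 of each. These counts are too few to describe the repertoire.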

How the data were processed

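The capture was made from 2 pools of CD45+ cells, told apart by Sample Tags 1 and 2. The authors' counts per gene and cell came from the BD Rhapsody WTA Analysis Pipeline 1.11 (GRCm38, GENCODE M19, intronic reads included), in which UMIs are corrected for sequencing errors. The deposited Sample Tag counts have 12 columns, 10 of them of no group and not used. Cells with at least 10 tag reads, at least 75% of them on tag 1 (control) or tag 2 (telmisartan), 150 to 5000 genes and at most 20% mitochondrial UMIs were kept, and no doublets were removed. Scrublet's automatic threshold marked 1478 of 9911 kept cells. As an alternative the 942 cells with the highest scores were removed (9.51%), among them 2 control and 9 telmisartan CD8 T cells. UMIs were summed over the CD8 T cells of each pool and divided by their total. Ratios carry exact conditional binomial intervals, sums exact Poisson intervals and shares Clopper-Pearson intervals, computed with Python 3.11.15, numpy 2.4.6 and scipy 1.17.1. The code for the ratio intervals was run on simulated independent counts. Those hold no single cells, so the run cannot tell how the intervals do where 1 cell holds many UMIs. Scanpy 1.11.5 gave the Scrublet scores and edgeR 4.0.16 the TMM factors, with no test. Gene positions are those of GENCODE M21 on GRCm38.

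Named genes came from 24 gene lists, some genes being on more than 1 and some members not reported here by name, and from a rule of size. The rule took the 10 highest and 10 lowest ratios among genes with at least 50 UMIs and UMIs in at least 10 cells whose interval leaves out 0, without mitochondrial and ribosomal protein genes, and 15 each way for CD8 over CD4 T cells with the interval leaving out 0 in each pool too. The members and lists were chosen with earlier results of these data known. Alternatives were other limits on tags, genes, mitochondrial UMIs, C1q, *Cd8a* and *Cd8b1*, T cell genes, *Cd4* and doublets, other scalings, thinning, other minimum counts and folds, and leaving out single cells.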

Additional observations from a re-analysis of the deposited data

Results flagged for a closer look

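Of the gene-list members and the genes of highest and lowest ratio with at least 50 UMIs in CD8 and at least 50 in CD4 T cells, 10 of 120 (8.33%) had log2 ratios of telmisartan over control of opposite signs in these cell types, with both counting intervals leaving out 0. Over all genes with these UMIs it was 23 of 1284 (1.79%), and several of the 10 were named for the size of their ratio. Each treatment is 1 pool, so the difference between the cell types was not tested. Among chemokines and macrophage transcripts, *Pf4* was at 3.84 in CD8 and -1.16 in CD4 T cells, *Apoe* at 3.41 and -0.85, *Ccl7* at 2.48 and -3.57, *Ccl2* at 1.27 and -2.60, *Spp1* at 0.57 and -2.39 and *Lyz2* at 0.41 and -0.53. The MHC class II genes went the other way round, with *H2-Eb1* at -1.97 in CD8 and 0.67 in CD4 T cells and *H2-Ab1* at -1.86 and 0.60. Of effector genes, *Gzmb* was at 0.45 and -0.75 and *Ccl3* at 0.51 and -0.64. The CD8 value took the sign of the CD4 value for *Gzmb*, *Ccl3* and *H2-Ab1* in cells with no C1q UMI (-0.71, -0.79 and 0.25), for *Lyz2* at a tag share of 90% (-0.85) and with at least 3 T cell gene UMIs (-0.58), and for *Ccl2* with cells thinned to 1000 UMIs (-0.15). In *Spp1* 1 cell held 74 of 140 control and 1 cell 205 of 449 telmisartan UMIs. The summed macrophage markers were at 0.52 in CD8 and -0.73 in CD4 T cells, and their part in these differences was not tested. With fewer UMIs, opposite signs were also found for *Sgk1* (2.52 in CD8 and -1.93 in CD4 T cells) and *Hmmr* (2.21 and -2.48), and for *Ccl12* and *Xcl1*, which had no UMI in 1 pool of a cell type.

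Cells outside the quality limits also met the RNA conditions for CD8 T cells. Above the mitochondrial limit there were 11 such cells among 2623 control cells (0.419%) and 19 among 4433 telmisartan cells (0.429%), with median depths of 1340 and 1765 UMIs. Of 941 cells whose tag reads were split between tags, 9 met them (0.956%), and these could be given to neither pool.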

How the results depend on the processing

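The higher share of CD8 T cells in the telmisartan pool was found under each alternative tried. No looser mitochondrial limit was among them, and above the limit the shares were alike, 0.419% in control and 0.429% in telmisartan cells. Of 24 alternative values of the CD8 share of kept cells, 22 lay within the counting interval of the reported value, and with no C1q UMI allowed the shares were 0.374% in control and 0.869% in telmisartan. All 24 values of the CD8 share of T cells lay within it. Wherever a value moved or turned with an alternative, the cause was not tested.

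The number of genes at least 2-fold higher in telmisartan CD8 T cells was 82 and the number at least 2-fold lower 44. Under 11 of 18 alternatives the first and under 10 of 18 the other stayed within 1.5 times these numbers. At a tag share of 90% there were 54 higher and 60 lower, so that the split turned, at a mitochondrial limit of 10% 29 lower, and with no C1q UMI 24 lower. Thinning to 1000 UMIs left 8 higher and 4 lower, as fewer genes reach the minimum count. Genes with at least 20 UMIs gave 346 and 251, those with at least 100 UMIs 27 and 17, and a fold of 1.5 gave 227 and 164. In alternatives chosen after seeing the data, cells with macrophage markers under 1% of UMIs gave 50 and 22, and leaving out the cell with the most UMIs of each gene gave 151 and 29. Between CD8 and CD4 T cells, 122 genes were at least 2-fold higher and 111 lower over both pools, against 59 and 50 in control alone.

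Of 16 shares of cells with a UMI, 5 stayed within their interval when cells were thinned to 500 UMIs. Thinned shares in control and telmisartan were 21.2% and 22.2% for *Gzmb*, 0% and 18.1% for *Pdcd1* (0 of 33 control cells, which at a floor of 3 cells allows up to 9.09%), 6.06% and 18.1% for *Havcr2* and 6.06% and 29.2% for *Nr4a1*. That limit holds for the thinned counts only, since 11 of 33 control cells had a *Pdcd1* UMI before thinning. In telmisartan the thinned shares were 4.17% for *Prf1*, 11.1% for *Ifng* and 16.7% for *Tnfrsf9*.

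For the summed gene lists, 267 of 331 alternative log2 ratios lay within the reported interval, 52 moved beyond it and 12, reported with an interval leaving out 0, changed sign. For named genes 1361 of 1584 lay within it, 186 moved and 37 such values changed sign. No value could be given for 5 list and 21 gene values, since a pool had no UMI. At a tag share of 90%, list values beyond their interval were T lineage genes at 0.42, granzymes and pore formers at 0.27, checkpoint genes at 0.62, transcription factors at -0.057, TCR signal response genes at 0.24, S phase genes at 0.95, mitosis genes at 1.31, type I interferon genes at -0.45 and TCR machinery at 0.40. The sign was reversed for macrophage markers at -0.28, neutrophil markers at -0.44, *Nusap1* at 1.10 and *Lyz2* at -0.85. At a mitochondrial limit of 10%, list values beyond their interval were T lineage genes at 0.32, TCR machinery at 0.24 and CD4 and regulatory T cell markers at 0.74. Of opposite sign to the reported value were mitosis genes at -0.20. With no C1q UMI allowed, list values beyond their interval were cytokines and chemokines at -1.07, naive and memory genes at -0.33, residency and homing genes at -0.60, S phase genes at 0.94, type I interferon genes at 0.23, interferon-gamma genes at -0.35, TCR machinery at -0.14, macrophage markers at 2.49 and neutrophil markers at 0.27. Opposite directions were found for T lineage genes at -0.29, granzymes and pore formers at -0.098, costimulation receptors at -0.13, dendritic markers at 1.12, *Cxcl10* at 1.62, *H2-Ab1* at 0.25, *Fbxl5* at 0.60, *Mt2* at 1.62, *Gzmb* at -0.71, *Ccl3* at -0.79, *Ccl5* at -0.022, *Icos* at -0.23, *Ifngr1* at -0.47, *Gbp2* at 0.86 and *Ms4a4b* at -0.059. With at least 2 UMIs of *Cd8a* and *Cd8b1*, list values beyond their interval were naive and memory genes at -0.10, costimulation receptors at 0.15, type I interferon genes at 0.14, interferon-gamma genes at -0.29, TCR machinery at -0.030, macrophage markers at 0.98 and dendritic markers at -0.54. The sign was reversed for T lineage genes at -0.059, *Cxcl10* at 2.10, *Mt2* at 1.51, *Ms4a6d* at 0.034 and *Ifi203* at 0.086. With at least 3 T cell gene UMIs, list values beyond their interval were type I interferon genes at 0.26, interferon-gamma genes at -0.32, macrophage markers at 0.085 and dendritic markers at -0.42. Of opposite sign to the reported value were neutrophil markers at -0.10, *Cxcl10* at 1.42, *Ifi203* at 0.076 and *Lyz2* at -0.58. Without the cells of highest Scrublet score, list values beyond their interval were T lineage genes at 0.27, granzymes and pore formers at 0.29, cytokines and chemokines at -0.092, checkpoint genes at 0.43 and macrophage markers at 0.36. As a mean over cells of CPM per cell, list values beyond their interval were dendritic markers at -0.77. Of opposite sign to the reported value were mitosis genes at -0.15 and *Ccl5* at -0.17. With TMM factors, list values beyond their interval were TCR signal response genes at 0.56 and macrophage markers at 0.63. With cells thinned to 1000 UMIs, list values beyond their interval were checkpoint genes at 0.54, naive and memory genes at 0.30, NK-type receptors at -0.30, type I interferon genes at -0.48, interferon-gamma genes at -0.38, TCR machinery at 0.24, macrophage markers at 0.65, dendritic markers at -0.69 and NK and innate lymphoid markers at -0.74. Of opposite sign to the reported value were mitosis genes at -0.32, *Cxcl10* at 0.65, *Mt2* at 0.85, *Ccl4* at 0.030, *Ccl5* at -0.25, *Bcl2* at 0.17, *Itga4* at -0.79, *Rora* at -0.017 and *Ccl2* at -0.15. Among cells with macrophage markers under 1% of UMIs, a limit chosen after seeing the data, list values beyond their interval were T lineage genes at 0.048, TCR signal response genes at 0.33 and interferon-gamma genes at -0.24. Opposite directions were found for dendritic markers at 0.19, *Cxcl9* at 1.12, *Cxcl10* at 2.05, *Mt2* at 1.5, *Ms4a6d* at 0.12 and *Gbp2* at 0.80. Without the cell with the most UMIs of the gene in each pool, opposite sign to the value reported was found for *Ccl4* at 0.26, *Fos* at 0.069 and *Nusap1* at 0.26.

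Each treatment is 1 pool of cells sorted from several tumors, so the spread between mice cannot be told apart from treatment, and each interval covers counting error only. No paired analysis was possible because each treatment has 1 pool. The results rest on 33 control and 72 telmisartan cells, and a gene with a few UMIs can depend on a single cell. Cell types were set by a few marker UMIs, so T cells with fewer UMIs can be missed. Transcripts of macrophage markers were counted in these cells, and their source was not tested.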
